A study of Mus musculus with 14 samples.

Results

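The transcripts described here are those of 5 metabolic enzymes, Etnppl, Xdh, Aass, Cyp2j9 and Pnpla7, which were taken from the table of read counts by matching its Ensembl identifiers to these mouse symbols. Each symbol matched 1 row, giving 5 of the 48440 genes in the table, and all 5 passed the filter on low counts. The 5 were chosen by their levels in these same libraries, higher in knockout than in wild type, so their genotype differences are given as values without a test. Total RNA of C57BL/6 mice with the genotype CARIP-/- was compared with that of wild-type C57BL/6 mice in bulk RNA sequencing. There were 3 CARIP-/- and 3 wild-type libraries of cerebellum, 2 and 2 of cerebral cortex (titled Cerebrum), and 2 and 2 of hippocampus. Age, sex, housing and the way the allele was made are not given in the labels used here. The gene behind the name CARIP was not identified in the annotation, and no level is given for it. No label says that libraries of a group came from separate mice, so errors and p-values measure the spread between these libraries only.

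The 5 enzymes act in separate branches of metabolism. Etnppl encodes the vitamin B6-dependent ethanolamine-phosphate phospho-lyase, which breaks down phosphoethanolamine, a precursor of membrane phospholipids, and is known in brain as an astrocyte transcript. Pnpla7 is a patatin-like lysophospholipase that removes the remaining fatty acid from lysophosphatidylcholine. Aass is the mitochondrial enzyme that starts lysine breakdown through saccharopine. Xdh, a molybdenum enzyme, oxidises hypoxanthine to xanthine and on to uric acid, and is known from endothelial cells of many tissues. Cyp2j9 is a cytochrome P450 that oxidises arachidonic acid and other polyunsaturated fatty acids.

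All 5 are protein-coding genes on different chromosomes of GRCm38 (GENCODE M21). Etnppl (ENSMUSG00000019232.14) lies at chr3:130617448-130637521 on the plus strand and Pnpla7 (ENSMUSG00000036833.16) at chr2:24976033-25054057 on the plus strand. On the minus strand, Aass (ENSMUSG00000029695.13) lies at chr6:23072173-23132986, Xdh (ENSMUSG00000024066.8) at chr17:73883895-73950196 and Cyp2j9 (ENSMUSG00000015224.10) at chr4:96568429-96591578. Counts were made over whole genes, so a value covers exons of every annotated transcript and says nothing about isoforms. No exon of the 5 overlapped an exon of another gene. None of the runs of 50 bases in the transcripts of Etnppl, Aass and Cyp2j9 recurred in transcripts of other genes. For Pnpla7 0.343% of such runs recurred and for Xdh 9.6%, and reads from these stretches of Xdh are uncertain because the handling of reads with several matches is not given.

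Start-site windows are shown because all 5 members were selected for the same direction of difference. RefSeq gives such a window, 250 bases before to 50 after a transcription start (GRCm38.p6), for 4 of the 5 genes. Capitals mark matches, on either strand, to 6 motifs: AGAACA (the core of glucocorticoid response elements), AGGTCA (the core bound by many nuclear receptors), the E-box CACGTG, the cAMP response element TGACGTCA, the forkhead site GTAAACA and the TATA box TATAAA. Pnpla7 (chr2:24975783-24976082, plus strand) held the most matches, Aass (chr6:23132937-23133236, minus strand) and the downstream of the annotated Etnppl starts (chr3:130617325-130617624, plus strand) held 1 each.
Pnpla7: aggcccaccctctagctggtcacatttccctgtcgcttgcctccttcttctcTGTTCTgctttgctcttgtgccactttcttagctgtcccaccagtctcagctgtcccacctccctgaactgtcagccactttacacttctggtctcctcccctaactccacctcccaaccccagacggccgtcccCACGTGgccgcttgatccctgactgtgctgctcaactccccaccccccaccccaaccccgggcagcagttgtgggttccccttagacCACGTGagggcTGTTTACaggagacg
Aass: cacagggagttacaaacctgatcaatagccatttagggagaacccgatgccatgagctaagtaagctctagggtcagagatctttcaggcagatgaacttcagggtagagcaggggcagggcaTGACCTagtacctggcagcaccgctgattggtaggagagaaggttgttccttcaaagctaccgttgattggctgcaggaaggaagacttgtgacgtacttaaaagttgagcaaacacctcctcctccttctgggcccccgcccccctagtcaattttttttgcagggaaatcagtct
Etnppl: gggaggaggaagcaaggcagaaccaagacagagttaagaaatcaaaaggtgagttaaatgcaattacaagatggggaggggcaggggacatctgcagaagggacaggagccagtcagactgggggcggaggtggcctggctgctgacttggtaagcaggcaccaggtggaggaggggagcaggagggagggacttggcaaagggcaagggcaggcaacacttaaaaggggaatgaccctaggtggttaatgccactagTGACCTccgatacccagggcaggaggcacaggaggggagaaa
In Pnpla7 the E-box matches began 63 bases before and 25 bases after the start, and at least 2 CACGTG matches occurred in 0.594% of 32851 promoter windows of the same length, against 7.15% with at least 1. The Pnpla7 window also held TGTTCT, the reverse complement of AGAACA, and TGTTTAC, that of GTAAACA, motifs found in 19.0% and 3.65% of windows. The match in Aass and in Etnppl was TGACCT, the reverse complement of AGGTCA, which 16.3% of windows hold. The window of the upstream Etnppl start and that of Cyp2j9 held none of the 6 motifs, TATAAA was in none of the windows of the 4 genes, and no motif was shared by all of them. A match describes letters only and shows no binding.

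The 14 libraries held 20.1 to 38.8 M counted reads (median 24.7 M). Levels are CPM, reads of a gene relative to a fixed library total, with totals scaled by TMM, a scaling that lines up the bulk of genes. Summed markers matched the labelled regions: cerebellar neuron markers reached 1370 to 2190 CPM in cerebellum and at most 81.5 CPM elsewhere, and hippocampal neuron markers 1930 to 2670 CPM in hippocampus and at most 892 CPM elsewhere. Cortical neuron markers reached 609 to 969 CPM in cortex and at most 335 CPM elsewhere. Libraries stood apart in their markers in each region. CARIP-/- cortex 2 had 1300 CPM of 11 striatal, 544 CPM of 9 thalamic and 1100 CPM of 10 choroid plexus markers, against 366, 102 and 280 CPM in CARIP-/- cortex 1 and at most 327, 115 and 271 CPM in wild-type cortex. Its cortical neuron markers were the lowest of the cortex, 609 CPM against 969 CPM in CARIP-/- cortex 1 and 914 and 950 CPM in wild type. In cerebellum, wild-type 2 had 9190 CPM of 10 oligodendrocyte markers, against 2340 to 4430 CPM in the other 5 libraries, and wild-type 1 had 124 CPM of choroid plexus markers, against 1220 to 2050 CPM. In hippocampus, choroid plexus markers summed to 223 and 244 CPM in CARIP-/-, against 1760 CPM in wild-type 2 and 333 CPM in wild-type 3. Cortical differences are therefore also given without CARIP-/- cortex 2, and those of the other regions with the range found on leaving out each library. In cortex and hippocampus, leaving out a library of the region leaves 1 in its group. Such a value rests on that library alone for its genotype. Over all genes, edgeR's quasi-likelihood test with Benjamini-Hochberg adjustment called 0 of 24680 genes (0%) between genotypes in each region, while 785, 1825 and 472 genes had an unadjusted p under 0.05 in cerebellum, cortex and hippocampus. DESeq2 called 2, 50 and 2 genes there and limma 0 in each. With cerebellar libraries paired by number, edgeR called 104 genes (0.421%), 18 higher (0.0729%) and 86 lower (0.348%) in CARIP-/-. No label says what the numbers mean, and libraries 1 and 3 were as alike across numbers as within them. All paired results below carry this limit.

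Etnppl was the member with the largest cortical difference. In cortex it had 72.1 and 97.8 CPM in CARIP-/- libraries 1 and 2, against 38.4 and 28.8 CPM in wild-type libraries 2 and 3. In hippocampus the values were 52.5 and 48.4 CPM in CARIP-/-, against 27.1 and 26.5 CPM in wild type. In cerebellum they were 139, 134 and 109 CPM in CARIP-/- libraries 1 to 3, against 84.0, 102 and 100 CPM in wild-type libraries 1 to 3. Every CARIP-/- library thus stood above every wild-type library of its region, with the narrowest gap in cerebellum, where CARIP-/- 3 and wild-type 2 lay 109 to 102. The group means were 85.0 ± 18.2 and 33.6 ± 6.75 CPM in cortex (SD, n = 2 each; ratio 2.53), 50.5 ± 2.91 and 26.8 ± 0.404 CPM in hippocampus (ratio 1.88) and 127 ± 15.8 and 95.5 ± 10 CPM in cerebellum (SD, n = 3 each; ratio 1.33), CARIP-/- first. The fitted log2 fold changes were 1.34 ± 0.18, 0.91 ± 0.18 and 0.42 ± 0.15 in the same order (SE). Without CARIP-/- cortex 2 the cortical value was 1.10, and on leaving out each library in turn the hippocampal one ranged from 0.85 to 0.97 and the cerebellar one from 0.33 to 0.52. Between 646 and 4166 reads lay behind each of these levels. In whole tissue, more transcript per cell and more cells of a type cannot be told apart, for Etnppl and the other members alike.

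Pnpla7, the lysophospholipase, differed most in cerebellum. There it had 44.4, 36.0 and 36.5 CPM in CARIP-/- libraries, against 24.0, 24.0 and 28.4 CPM in wild type. The means were 39 ± 4.71 and 25.5 ± 2.56 CPM (ratio 1.53), and the log2 fold change was 0.61 ± 0.13, or 0.51 to 0.70 on leaving out each library. In cortex the 2 genotypes nearly met, with 29.1 and 31.2 CPM in CARIP-/- and 27.9 and 21.7 CPM in wild type (0.28 ± 0.16). Wild-type cortex 3 set most of that difference, which was 0.11 without it, 0.49 without wild-type cortex 2, and 0.34 and 0.22 without CARIP-/- cortex 1 and 2. In hippocampus Pnpla7 had 39 and 36.9 CPM in CARIP-/-, against 30.4 and 30.6 CPM in wild type (0.32 ± 0.16, or 0.27 to 0.36 on leaving out each library). The libraries of each genotype lay close together there, and no library overlapped between genotypes in any of the 3 regions.

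Aass, the enzyme of lysine breakdown, had few reads, 145 to 482 in a CARIP-/- library and 127 to 308 in a wild-type library. In cerebellum it had 20.4, 15.6 and 18.7 CPM in CARIP-/-, against 5.69, 7.00 and 12.1 CPM in wild type. The means were 18.2 ± 2.45 and 8.26 ± 3.38 CPM, a ratio of 2.2, and the log2 fold change was 1.14 ± 0.25. Wild-type cerebellum 3 lay well above the other wild-type libraries, and the log2 fold change was 1.52 without it and 0.93 without wild-type cerebellum 1. In cortex Aass had 6.15 and 9.20 CPM in CARIP-/-, against 5.71 CPM in both wild-type libraries. CARIP-/- cortex 1 was thus barely above wild type: the log2 fold change was 0.43 ± 0.31 with all libraries, 0.10 without CARIP-/- cortex 2 and 0.69 without CARIP-/- cortex 1. In hippocampus the levels were 7.31 and 7.94 CPM in CARIP-/-, against 5.32 and 5.78 CPM in wild type (0.46 ± 0.32, or 0.40 to 0.51 on leaving out each library).

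Xdh, the purine-oxidising enzyme, showed the most even difference over the regions. In cerebellum it had 27.1, 31.9 and 19.9 CPM in CARIP-/-, against 14.3, 15.6 and 13.1 CPM in wild type. In cortex it had 31.9 and 36.0 CPM in CARIP-/-, against 20.7 and 13 CPM in wild type, and in hippocampus 20.7 and 22.3 CPM in CARIP-/-, against 12.5 CPM in both wild-type libraries. No CARIP-/- library of a region overlapped a wild-type library. The means were 26.3 ± 6.02 and 14.3 ± 1.26 CPM in cerebellum, 34.0 ± 2.89 and 16.8 ± 5.43 CPM in cortex, and 21.5 ± 1.16 and 12.5 CPM in hippocampus, CARIP-/- first. The ratios of the means were 1.83 in cerebellum, 2.02 in cortex and 1.73 in hippocampus, and the log2 fold changes 0.87 ± 0.19, 1.01 ± 0.23 and 0.79 ± 0.23. The cortical value moved between 0.72 without wild-type cortex 3 and 1.40 without wild-type cortex 2, and was 0.92 without CARIP-/- cortex 2. The cerebellar value ranged from 0.71 to 1.04 and the hippocampal one from 0.73 to 0.84 on leaving out each library. Xdh levels rested on 439 to 1213 reads in CARIP-/- and 297 to 539 reads in wild-type libraries.

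Cyp2j9, the arachidonic acid-oxidising P450, was the member whose genotypes overlapped in a region. In cerebellum it had 48.3, 51.9 and 48.0 CPM in CARIP-/-, against 45.7, 50.6 and 44.3 CPM in wild type, a log2 fold change of 0.07 ± 0.13 (0.04 to 0.13 on leaving out each library). In cortex it had 43.0 and 62.1 CPM in CARIP-/-, against 24.9 and 25.1 CPM in wild type. Both CARIP-/- cortex libraries were far above the closely matched wild-type pair, with a ratio of 2.1 and a log2 fold change of 1.07 ± 0.16, or 0.78 without CARIP-/- cortex 2. In hippocampus the values were 40.9 and 40.1 CPM in CARIP-/-, against 27.0 and 31.8 CPM in wild type (0.46 ± 0.16), and leaving out wild-type hippocampus 2 or 3 gave 0.35 or 0.58. Whether the knockout difference of Cyp2j9 differs between regions was not tested, since that difference chose the gene.

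**Figure D1:**
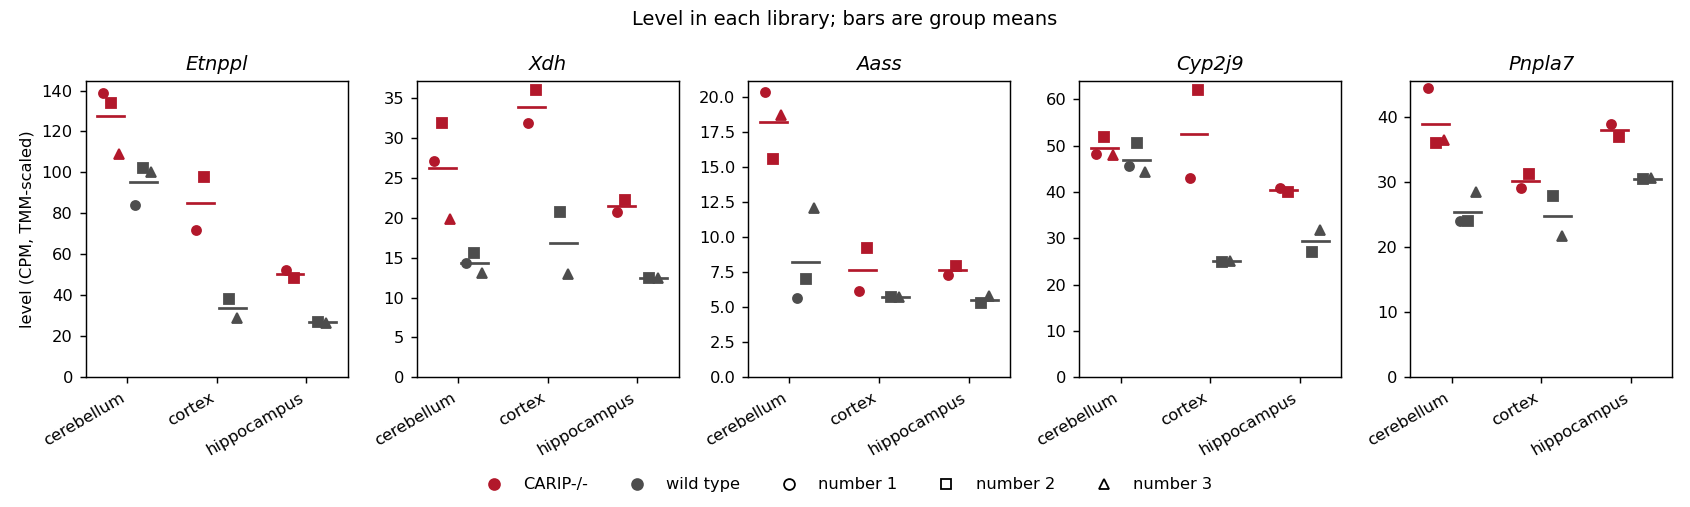
Level of each of the 5 transcripts in all 14 libraries (vertical axis, CPM on TMM-scaled totals, from 0) by region, with CARIP-/- in red left of wild type in grey. Marker shape gives the library number and horizontal bars the group means. CARIP-/- and wild type overlap for Cyp2j9 in cerebellum, while Etnppl in cortex ranges from 72.1 to 97.8 CPM in CARIP-/- and from 28.8 to 38.4 CPM in wild type.

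Across the members, 4 of 5 (Etnppl, Xdh, Aass and Pnpla7) had every CARIP-/- library above every wild-type library in all 3 regions. Among all 24680 genes 106 did so (0.429%). Leaving out CARIP-/- cortex 2, which was decided after seeing the data, the members' count was again 4 and the share of all genes 0.782%. By region, 4 of 5 members lay above wild type without overlap in cerebellum, where 4.78% of all genes did, 5 of 5 in cortex, where 14% did, and 5 of 5 in hippocampus, where 18.1% did. Nothing is read from these counts about the members, because the genotype difference chose them. The difference averaged over the 3 regions, fitted with limma, was 0.89 ± 0.11 for Etnppl, 0.89 ± 0.14 for Xdh, 0.71 ± 0.19 for Aass, 0.53 ± 0.10 for Cyp2j9 and 0.41 ± 0.09 for Pnpla7 (log2, SE). The median over all genes was between -0.01 and 0.02 in each region. With cerebellar libraries paired by number the cerebellar values were 0.41 ± 0.10, 0.85 ± 0.12, 1.18 ± 0.20, 0.07 ± 0.08 and 0.61 ± 0.11, in the order just given.

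**Figure D2:**
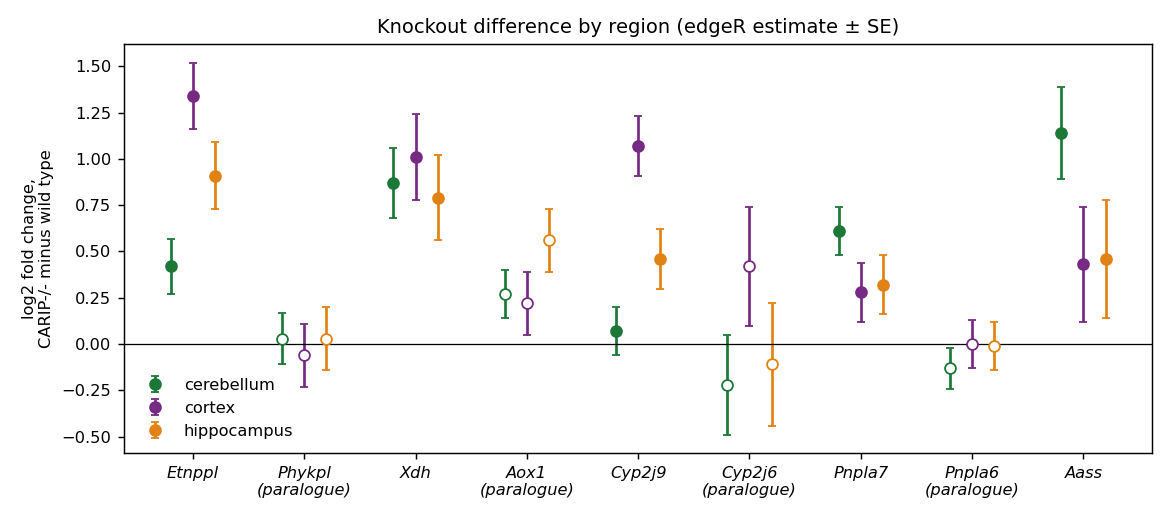
Log2 fold change of CARIP-/- over wild type with its standard error (edgeR, all 14 libraries) for the 5 enzymes (filled) and the 4 paralogues named in the text (open), in cerebellum, cortex and hippocampus. Etnppl and Cyp2j9 have their highest value in cortex (1.34 and 1.07), Aass and Pnpla7 in cerebellum (1.14 and 0.61).

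Regions were compared within wild type. Wild-type levels are also one side of the genotype difference that chose the members, so these tests are not free of that choice, and the mean over both genotypes, to which each contributes the same number of libraries, is given beside them. Within wild type, 2 of the 5 enzymes, Etnppl and Cyp2j9, were higher in cerebellum than in cortex and than in hippocampus, while the other 3 did not pass. Of all genes 30.7% passed between cerebellum and cortex (14.1% higher and 16.5% lower in cerebellum) and 30.8% between cerebellum and hippocampus (14.1% higher and 16.7% lower). The share of all genes higher in cerebellum in both contrasts was not counted, so nothing is read from the count of 2 of 5. Etnppl was 2.84-fold higher in cerebellum than in cortex (log2 difference 1.51 ± 0.17, edgeR adjusted p = 3.9e-05) and 3.56-fold higher than in hippocampus (1.83 ± 0.18, adjusted p = 8.1e-06). Cyp2j9 was 1.87-fold higher in cerebellum than in cortex (0.91 ± 0.15, adjusted p = 0.00063) and 1.59-fold higher than in hippocampus (0.67 ± 0.15, adjusted p = 0.0043). Over both genotypes the differences against cortex and hippocampus were 1.05 ± 0.12 and 1.59 ± 0.12 for Etnppl (edgeR adjusted p = 1.6e-05 and 4.6e-07) and 0.41 ± 0.10 and 0.48 ± 0.10 for Cyp2j9 (adjusted p = 0.0062 and 0.0023), each smaller than in wild type. Over both genotypes 48.4% and 47.3% of all genes passed these contrasts. The Cyp2j9 call against hippocampus in wild type rests on wild-type hippocampus 2, without which the difference was 0.57 (adjusted p = 0.068). Over the same contrasts edgeR gave Aass differences of 0.53 ± 0.29 and 0.57 ± 0.29 (adjusted p = 0.19 and 0.16), which over both genotypes were 0.89 ± 0.21 and 0.91 ± 0.21 and passed (adjusted p = 0.0033 and 0.0028). Pnpla7 had 0.04 ± 0.14 and -0.26 ± 0.14 (adjusted p = 0.87 and 0.19). Xdh had -0.23 ± 0.21 and 0.20 ± 0.22 (adjusted p = 0.45 and 0.52). Between hippocampus and cortex 5.54% of all genes passed (2.64% higher and 2.9% lower in hippocampus) and 0 of the 5 enzymes by edgeR, DESeq2 or limma, none of them at an unadjusted p under 0.05 either, with log2 differences from -0.43 ± 0.23 for Xdh to 0.30 ± 0.16 for Pnpla7. Over both genotypes Etnppl (-0.54 ± 0.13, edgeR adjusted p = 0.016) and Xdh (-0.55 ± 0.16, adjusted p = 0.049) were lower in hippocampus than in cortex, where 12% of all genes passed.

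In CARIP-/- libraries the same contrasts, which carry the difference that chose the genes, read otherwise for Cyp2j9 and Aass. Cyp2j9 had a cerebellum minus cortex difference of -0.09 ± 0.15 in CARIP-/-, against 0.91 ± 0.15 in wild type. Aass had 1.24 in CARIP-/- cerebellum minus cortex, against 0.53 in wild type. Per kilobase of exon, Cyp2j9 was the most abundant of the 5 in 5 of the 6 groups of region and genotype. The length was that of all annotated exons of a gene together, used or not, so the order depends on it. By CPM alone the mean of Etnppl was above that of Cyp2j9 in cerebellum, cortex and CARIP-/- hippocampus. In CARIP-/- cerebellum these were 127 and 49.4 CPM. In wild-type hippocampus it was below (26.8 and 29.4 CPM). In cerebellum its mean was 14.8 CPM per kb in CARIP-/- and 14 in wild type, and that of Etnppl 15.4 in CARIP-/- and 11.6 in wild type, so that these neighbours overlapped in CARIP-/- and did not in wild type. Pnpla7 followed with 5.2 and 3.4 CPM per kb, Aass with 4.77 and 2.16 and Xdh with 2.86 and 1.56, CARIP-/- first. In CARIP-/- cerebellum Pnpla7 and Aass overlapped, and in wild-type cerebellum Aass and Xdh did. In cortex the order of means was Cyp2j9 (15.8 CPM per kb in CARIP-/-, 7.5 in wild type), Etnppl (10.3 and 4.07), Pnpla7 (4.02 and 3.31), Xdh (3.7 and 1.83) and Aass (2.01 and 1.5) in both genotypes. Pnpla7 and Xdh overlapped in CARIP-/- cortex, and Etnppl with Pnpla7 and Xdh with Aass in wild-type cortex. In hippocampus Cyp2j9 came first (12.1 CPM per kb in CARIP-/-, 8.81 in wild type), with Xdh (2.34 and 1.36) and Aass (2.0 and 1.45) last. There Etnppl stood above Pnpla7 in CARIP-/- (6.11 and 5.06 CPM per kb) and below it in wild type (3.24 and 4.07), with no library of the pair overlapping in either genotype.

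Paralogues of the members other than Aass gave a comparison within enzyme families. These paralogues were picked by name, without a comparison of sequences. None passed between genotypes, but 0 of all 24680 genes (0%) passed in any region, so that outcome tells nothing particular about the paralogues. Phykpl, a phospho-lyase of phosphohydroxylysine related to Etnppl, had log2 fold changes of 0.03 ± 0.14 in cerebellum, -0.06 ± 0.17 in cortex and 0.03 ± 0.17 in hippocampus (edgeR adjusted p = 1.0, 0.926 and 1.0). Its exons share 809 bases with those of Hnrnpab on the opposite strand, so its reads are uncertain without strand. Pnpla6, the neuropathy target esterase related to Pnpla7, had -0.13 ± 0.11, -0.00 ± 0.13 and -0.01 ± 0.13. Cyp2j6, a neighbour of Cyp2j9 on chromosome 4, had -0.22 ± 0.27, 0.42 ± 0.32 and -0.11 ± 0.33, and the smallest edgeR adjusted p of these genes was 0.725. The other tested Cyp2j genes went both ways in cortex: Cyp2j12 had 1.24 ± 0.60, Cyp2j13 -0.09 ± 0.76 and Cyp2j8 -0.35 ± 0.97. Aox1, an aldehyde oxidase that like Xdh uses the molybdenum cofactor, had 21.0 ± 1.1 and 17.4 ± 2.01 CPM in cerebellum, 13.5 ± 1.22 and 11.6 ± 1.22 CPM in cortex and 20.1 ± 2.4 and 13.6 ± 0.132 CPM in hippocampus, CARIP-/- first. All CARIP-/- libraries were above wild type in each region for Aox1, with log2 fold changes of 0.27 ± 0.13, 0.22 ± 0.17 and 0.56 ± 0.17 that did not pass (edgeR adjusted p = 1.0, 0.725 and 1.0). In wild type Phykpl, like Etnppl, was higher in cerebellum than in cortex (0.96 ± 0.16, edgeR adjusted p = 0.00053) and than in hippocampus (0.75 ± 0.15, adjusted p = 0.0028). Aox1, unlike Xdh, passed between cerebellum and cortex (0.59 ± 0.15, edgeR adjusted p = 0.011), though the difference between the genes was not tested.

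The pathways around the 5 enzymes were read from 5 lists of genes that exclude the members. No listed gene passed in any region, where 0 of all 24680 genes (0%) did. Of the ethanolamine and choline phospholipid genes around Etnppl, 17 of 17 were tested, with median log2 fold changes of -0.04 in cerebellum, -0.06 in cortex and -0.07 in hippocampus and 6, 6 and 5 positive values. Etnk1, the kinase that makes phosphoethanolamine, the substrate of Etnppl, had 344 and 330 CPM in cerebellum, 409 and 411 CPM in cortex and 417 and 389 CPM in hippocampus, CARIP-/- first (log2 fold changes 0.06, -0.01 and 0.10). Chka, choline kinase alpha, had 69.3 CPM in CARIP-/- and 107 CPM in wild-type cortex (-0.63 ± 0.28, edgeR adjusted p = 0.68). Of 15 tested patatin-like and lysophospholipid genes around Pnpla7, the medians were -0.00, 0.06 and -0.01, and the abundant Abhd12, a lysophosphatidylserine lipase, had 102 and 114 CPM in cerebellum, 187 and 179 CPM in cortex and 185 and 205 CPM in hippocampus, CARIP-/- first. Gpcpd1, which splits glycerophosphocholine, had log2 fold changes of -0.13 ± 0.18, -0.26 ± 0.22 and 0.06 ± 0.22.

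The lists around Xdh, Aass and Cyp2j9 had positive medians in cortex. Purine degradation and salvage (16 tested of 17) had medians of 0.01, 0.13 and -0.04 in cerebellum, cortex and hippocampus, lysine degradation (12 of 13) 0.04, 0.24 and 0.04, and cytochrome P450 and epoxide hydrolase genes (16 of 19) 0.07, 0.36 and 0.01. In cortex 13, 11 and 11 of their members were positive. Without CARIP-/- cortex 2 these cortical medians were -0.08, -0.04 and 0.20, and without CARIP-/- cortex 1 they were 0.30, 0.54 and 0.49. Dlst and Dld, subunits of mitochondrial dehydrogenase complexes, had log2 fold changes of -0.22 ± 0.14 and -0.13 ± 0.11 in cerebellum, 0.18 ± 0.17 and 0.07 ± 0.14 in cortex, and -0.13 ± 0.17 and -0.06 ± 0.14 in hippocampus. Gda, guanine deaminase, had -0.39 ± 0.52, -0.27 ± 0.53 and 0.11 ± 0.53. Gphn, a scaffold protein that also makes the molybdenum cofactor of Xdh, had 105 and 108 CPM in cerebellum, 81.8 and 76.4 CPM in cortex and 93.2 and 90.9 CPM in hippocampus, CARIP-/- first. Por, the reductase that passes electrons to P450 enzymes, had 103 CPM in CARIP-/- and 71.7 CPM in wild-type cortex (0.52 ± 0.22, edgeR adjusted p = 0.68). Cyp46a1, the neuronal cholesterol hydroxylase, had 15.9 CPM in CARIP-/- and 22.4 CPM in wild-type cerebellum (-0.49 ± 0.18, adjusted p = 1.0). Across the 5 lists and 3 regions between 0 and 3 genes a list had an unadjusted p under 0.05, DESeq2 called 0, and the paired cerebellar comparison called 0. Without CARIP-/- cortex 1, between 1 and 3 genes of each list passed in cortex, in a fit that leaves CARIP-/- cortex 2 alone in its group.

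**Figure D3:**
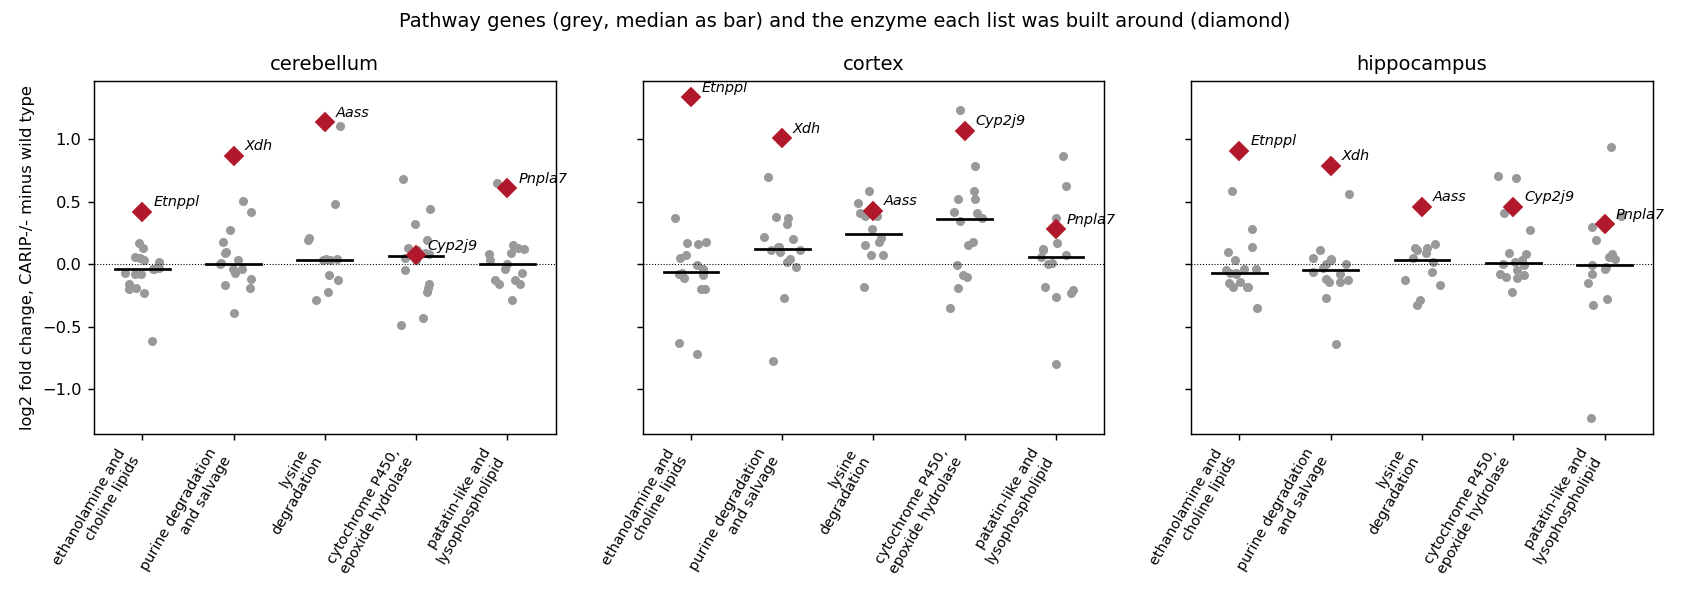
Log2 fold changes of CARIP-/- over wild type (edgeR) for the tested genes of the 5 pathway lists (grey points, black bar for the median) and for the enzyme each list was built around (red diamond), in the 3 regions. List medians lie between -0.07 and 0.36, with the highest in cortex for the P450 list, and Cyp2j9 lies at its list's median in cerebellum.

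A list of 16 glucocorticoid-responsive genes, drawn up with results of these data known and so no independent evidence, contained no passing gene without pairing (6, 8 and 7 at an unadjusted p under 0.05 in cerebellum, cortex and hippocampus, and 0 by DESeq2). Without pairing, edgeR called 0 of all 24680 genes as well. In the paired cerebellar comparison 7 of the list passed, 3 higher and 4 lower in CARIP-/-, where 0.421% of all genes did. These calls rest on pairing by library number, whose meaning no label gives. Lcn2, an iron-carrier-binding protein, rose (2.87 ± 0.26, edgeR adjusted p = 0.00016), as did Fam107a, a stress-induced actin-binding protein (0.80 ± 0.08, adjusted p = 0.00055). Per1, a clock gene, fell by 0.62 ± 0.08 (adjusted p = 0.0019), and Sgk1, a kinase, fell by 0.67 ± 0.09 (adjusted p = 0.0033). The list thus held genes of both directions, and its median was -0.06, 0.22 and 0.00 in cerebellum, cortex and hippocampus, with 0.02 in cortex without CARIP-/- cortex 2.

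The members were set beside summed markers of the cell types in the tissue. Astrocyte markers (12 of 12 matched) summed to 3610 to 4440 CPM in CARIP-/- and 3900 to 5040 CPM in wild-type cerebellum, 6940 to 8330 and 6750 to 7250 CPM in cortex, and 7140 to 7240 and 7020 to 7210 CPM in hippocampus. Per 1000 CPM of these markers, Etnppl had 30.3 to 37.2 CPM in CARIP-/- and 20.3 to 25.4 CPM in wild-type cerebellum, 10.4 to 11.7 and 4.27 to 5.29 CPM in cortex, and 6.78 to 7.26 and 3.68 to 3.86 CPM in hippocampus. The Etnppl ratio of CARIP-/- to wild type was thus 1.45, 2.31 and 1.86 relative to the markers, with no overlap between genotypes. Of the 12 astrocyte markers singly, 3 had positive log2 fold changes in cerebellum (median -0.16), 12 in cortex (0.33) and 8 in hippocampus (0.06). None passed, as was so for all genes. In the paired cerebellar comparison 4 were positive and 3 passed: Aqp4, a water channel, fell by 0.80 ± 0.09 (edgeR adjusted p = 0.00076), Gja1, a gap junction protein, by 0.58 ± 0.08 (adjusted p = 0.002) and Gfap, an intermediate filament, by 0.64 ± 0.09 (adjusted p = 0.0029). Endothelial markers (10 of 10) summed to 255 to 329 CPM in CARIP-/- and 252 to 333 CPM in wild-type cerebellum, 357 to 394 and 293 to 353 CPM in cortex, and 256 to 274 and 239 to 258 CPM in hippocampus, so that in cortex the CARIP-/- libraries all lay above wild type and in the other regions the genotypes overlapped. Per 1000 CPM of endothelial markers Xdh had 78.0 to 99.6 CPM in CARIP-/- and 46.8 to 57.0 CPM in wild-type cerebellum, 89.5 to 91.5 and 44.3 to 58.5 CPM in cortex and 80.9 to 81.4 and 48.3 to 52.2 CPM in hippocampus. Genotypes did not overlap in any region, and the ratios were 1.78, 1.76 and 1.61. Per astrocyte markers, Aass had ratios of 2.39, 1.22 and 1.36 without overlap, Pnpla7 1.66, 1.12 and 1.23 with overlap in cortex, and Cyp2j9 1.15, 1.91 and 1.36 with overlap in cerebellum. With the marker lists exchanged, Etnppl per endothelial markers had ratios of 1.31, 2.18 and 1.77. Xdh per astrocyte markers had 1.98, 1.87 and 1.71. Neither overlapped in any region, so the lack of overlap was not particular to 1 marker list. All these values relative to markers still carry the genotype difference that chose the members. The share of all genes without overlap on this scale was not counted, so nothing is read from the gaps. Oligodendrocyte markers (10 of 10) summed to 2340 to 4430 CPM in CARIP-/- and 2600 to 9190 CPM in wild-type cerebellum, 2260 to 5870 and 1840 to 3750 CPM in cortex and 3090 to 4150 and 4640 to 5490 CPM in hippocampus. In the paired cerebellar comparison 1 of 10 endothelial markers passed, Itm2a, which fell by 0.90 ± 0.14 (edgeR adjusted p = 0.0071), and 2 of 10 oligodendrocyte markers, Opalin and Ugt8a, which fell by 2.33 ± 0.33 and 0.79 ± 0.13 (adjusted p = 0.033 each). Neuron markers (6 of 6) overlapped between genotypes in every region. The part of these shifts in the members' values was not tested.

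**Figure D4:**
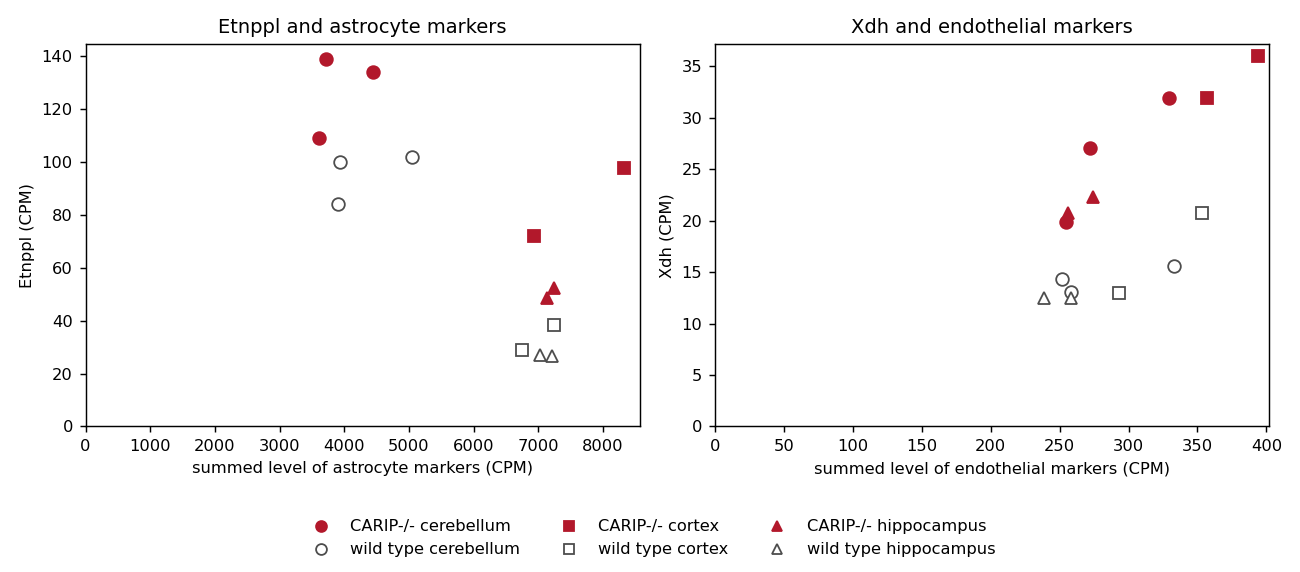
Left, Etnppl (CPM) against the summed level of 12 astrocyte markers (CPM), and right, Xdh (CPM) against that of 10 endothelial markers (CPM), in each library. Filled red symbols are CARIP-/- and open grey symbols wild type, with shapes for regions. In hippocampus Etnppl had 48.4 to 52.5 CPM in CARIP-/- and 26.5 to 27.1 CPM in wild type. The astrocyte sums there were 7140 to 7240 and 7020 to 7210 CPM. The part of cell composition in the genotype differences was not tested.

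Likeness between the members depended on what was subtracted. After subtracting the mean of each region, log2 CPM of Etnppl correlated with that of Cyp2j9 (Pearson r = 0.91 over 14 libraries) and Xdh (0.90), and that of Aass with Pnpla7 (0.90). Aass and Cyp2j9 had the lowest value (0.37). These values contain the genotype difference that chose the genes, and libraries and their composition are shared. With the mean of each region and genotype subtracted instead, r was 0.72 for Etnppl with Xdh, 0.67 for Etnppl with Pnpla7, 0.59 for Aass with Pnpla7, 0.55 for Etnppl with Cyp2j9 and 0.43 for Etnppl with Aass. The other pairs were lower: 0.37 for Xdh with Pnpla7, 0.32 for Xdh with Cyp2j9, 0.22 for Aass with Cyp2j9, -0.01 for Cyp2j9 with Pnpla7 and -0.17 for Xdh with Aass. In groups of 2 libraries such deviations mirror each other, so these r rest on fewer than 14 independent values. They were not recomputed with libraries left out.

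Outside the 5, the genes with the most similar pattern over the 14 libraries were named by the same region-centred correlation among genes with a mean log2 CPM of at least 1. For Etnppl they were Selenbp1, Tgm2 (transglutaminase 2) and Slc27a1 (a fatty acid transport protein), each with r = 0.94. For Xdh they were Podxl (podocalyxin, 0.95), Tgm2 (0.94) and Clec2d (0.94), so that Tgm2 stood among the nearest of both. Podxl had 43.0 and 28.3 CPM in cerebellum, 67.7 and 41.7 CPM in cortex and 40.7 and 27.7 CPM in hippocampus, CARIP-/- first. For Cyp2j9 they were Itih3 (0.95), Aldh9a1 (an aldehyde dehydrogenase, 0.94) and Apod (apolipoprotein D, 0.92). Apod, a lipid-binding secreted protein, had 258 and 182 CPM in cerebellum, 267 and 80.3 CPM in cortex and 174 and 95.5 CPM in hippocampus, CARIP-/- first, and its r ranged from 0.82 to 0.95 with each library left out in turn. For Aass they were Gm10557 (0.92), Tap1 (a peptide transporter of antigen processing, 0.91) and Hist1h2be (a histone, 0.91). For Pnpla7 they were 2810429I04Rik (0.94), Aph1c (a gamma-secretase subunit, 0.89) and Stxbp4 (0.88). Each of these pairings kept an r of at least 0.82 when any single library was left out. The neighbours were picked for a high r that contains the genotype difference that chose the members, so this range is no independent support.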

How the data were processed

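Bulk RNA-seq of 14 mouse brain libraries was used. The authors deposited 1 table of whole-number read counts per gene, not normalized. The submitters' processing notes name the aligner STAR 2.7.3a, the counter featureCounts 2.0.1, the trimmers cutadapt 2.10 and Trim Galore 0.6.4 and the build GRCm38.p6. Strandedness, multiple matches and annotation release were not given in the sources used here, so antisense and near-identical genes are uncertain. Of 48440 identifiers 48058 (99.2%) matched GENCODE M21 with the version suffix ignored. Depth was 20.1 to 38.8 M reads per library, and 3.68% at most were mitochondrial.

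Genes were kept by filterByExpr (24680), libraries scaled by TMM, and all 14 fitted in 6 groups of region and genotype with edgeR 4.0.16 (R 4.3.3, robust quasi-likelihood test, 8 residual degrees of freedom), Benjamini-Hochberg adjusted p below 0.05. The mean over regions came from limma 3.58.1 with genotype and library number as random block (correlation 0.0962). DESeq2 1.42.0, limma voom, RLE scaling, no filter and leaving out each library were alternatives. The fits were tested on simulated data. The members, lists and motifs were chosen with earlier results of these data known. From a list the text names passing genes (at most 4), otherwise its 2 most abundant, and named neighbours the 3 of highest correlation. As a departure from this rule, only sums are given for the neuron, striatal, thalamic, choroid plexus and regional marker lists. None of these had a passing gene by edgeR, paired or not, or for the mean over regions by limma. DESeq2 called 2 striatal, 1 thalamic and 1 choroid plexus marker in cortex, all higher in CARIP-/-.

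Cerebellar libraries share the numbers 1 to 3, whose meaning no label gives. Deviations from group means over 15886 genes correlated at 0.324, 0.809 and 0.425 between same-numbered libraries, above the bound of 0.1, so the paired values are given, although CARIP-/- 1 with wild-type 3 (0.383) and CARIP-/- 3 with wild-type 1 (0.516) were as high.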

Additional observations from a re-analysis of the deposited data

Results flagged for a closer look

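The patterns here went in opposite directions between regions without overlap of the genotypes, and in each case the difference between regions was not tested. Such gaps are common with 2 libraries per genotype. Every CARIP-/- library lay above wild type for 14% of all genes in cortex and 18.1% in hippocampus. The share of all genes with gaps in opposite directions was not counted, so nothing is read from these patterns. Gda, guanine deaminase of purine breakdown, had a ratio of CARIP-/- to wild type of 0.831 in cortex and 1.08 in hippocampus; neither passed. Summed striatal neuron markers had ratios of 1.26 in cerebellum, 2.89 in cortex and 0.866 in hippocampus. Taken singly, 5 of the 11 markers were positive and 6 negative in cerebellum (median log2 fold change -0.05), so the sum there does not stand for the list. In cortex 11 were positive and in hippocampus 0. Summed choroid plexus markers had ratios of 2.73 in cortex and 0.223 in hippocampus, where CARIP-/- had 223 and 244 CPM, against 1760 CPM in wild-type 2 and 333 CPM in wild-type 3, so that the ratio rests mostly on wild-type hippocampus 2. For both marker sums CARIP-/- cortex 2 was the highest cortical library, at 1300 and 1100 CPM, against 366 and 280 CPM in CARIP-/- cortex 1.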

How the results depend on the processing

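Counts of genes called between genotypes, 0 in each region and for the mean over regions, were 2 in cerebellum, 50 in cortex and 2 in hippocampus with DESeq2, 1 in cortex and 3 for the mean without the low-count filter, 7 in hippocampus fitted alone, 1 for the mean with no replicate block, and 104 in cerebellum with the replicate block. Leaving out each library gave 0 to 1 in cerebellum, 0 to 3005 in cortex, 0 in hippocampus and 0 to 78 for the mean, the highest without CARIP-/- cortex 1, which leaves CARIP-/- cortex 2 as the lone library of its group, assumed to vary like the others. Regional calls in wild type numbered 7567 for cerebellum against cortex (11941 over both genotypes, 4956 to 8950 leaving out each library, 5647 with the replicate block) and 7604 for cerebellum against hippocampus (11676, 4533 to 8984 and 5636). Hippocampus against cortex gave 1368 (2956, 451 to 2176 and 1190, and 2067 with DESeq2). The block changed no regional call of the 5 enzymes. Cyp2j9 in cerebellum minus cortex had -0.09 in CARIP-/- libraries, a value smaller than its SE, against 0.91 in wild type. In cerebellum minus hippocampus Cyp2j9 missed the threshold in CARIP-/- libraries (0.29) and without wild-type hippocampus 2 (0.57). The contrasts in CARIP-/- libraries carry the genotype difference that chose the gene. Over both genotypes 4 further regional differences passed: Etnppl (-0.54) and Xdh (-0.55) in hippocampus minus cortex, and Aass against cortex (0.89) and hippocampus (0.91). The members' genotype differences moved by less than the spread between libraries in 364 recomputed values and by more in 11, with no change of direction among the 11. Many of these fits left out a library of another region, which hardly enters the estimate. The differences are also those that chose the members, so these counts say little about how firm they are. The causes of the changes were not tested. Groups of 2 libraries, and 127 reads at the lowest for Aass, limit the precision, as do the libraries that stand apart in their markers.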
